A study of Bos taurus with 15 samples.

Results

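The constitutive proteasome and the ubiquitin enzymes were examined in the caruncular endometrium of cows, the part of the uterine lining to which the placenta later attaches. The members were the array probes whose gene description contains the word proteasome or ubiquitin. By this rule 127 probes matched, and 5 of them, the probes of ISG15, USP18, UBA7, PSMB8 and PSMB9, were left out by name. Of the remaining 122 probes, the 120 that were well above background on at least 3 of the 15 arrays were kept. They stood for 114 genes, as PSMA6, PSMD12, USP5, UBE2Q2, UBPH and UBTD2 had 2 probes each, out of 15208 probes on the array. The 2 probes dropped, one for USP21 and one for a gene described as AN1-like, were well above background on 1 array each. Just inside the limit, UBASH3A reached it on 3 arrays and UFD1 on 4, and 107 of the 120 probes (89.2%) reached it on all 15 arrays.

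The proteasome is the protease of the cytosol and nucleus that breaks down proteins marked with chains of the small protein ubiquitin. Its 20S core is a stack of rings, in which alpha subunits form the gate and beta subunits carry the active sites. The 19S particle binds at the ends of the core, where ATPase subunits unfold the substrate and non-ATPase subunits receive the ubiquitin chain and remove it. Ubiquitin is activated by E1 enzymes, passed to E2 conjugating enzymes and placed on the substrate with the help of E3 ligases, whereas deubiquitinating enzymes take it off again. Interferons are known to exchange some of the beta subunits for inducible ones and to raise the PA28 activator, and in cattle the conceptus secretes interferon-tau around the time of maternal recognition of pregnancy. Among the members, PSMB10 (an inducible beta subunit) and PSME1 and PSME2 (the subunits of PA28) are known as interferon-inducible, so the name constitutive does not hold for them.

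Tissue came from Japanese Black cows of the following groups: non-pregnant on day 15 (NP15, 4 cows), pregnant on day 15 (P15, 3 cows), non-pregnant on day 18 (NP18, 4 cows) and pregnant on day 18 (P18, 4 cows). The methods count days from insemination, which was day 1, and state that pregnancy was judged by whether trophoblast was seen in the opened uterine horn on the side of the corpus luteum, whereas the labels describe the non-pregnant groups as days of the estrous cycle. One array was hybridized per cow, so that the tests measure the spread between cows. The arrays lay on 9 slides scanned on 6 days, and no slide and no scan day held more than 1 group. P15, NP18 and P18 were each scanned on 1 day of their own, so that scan day and group cannot be told apart. Median signals lay between 315 and 838 across the arrays, and from 65.6 to 88.3% of all probes were well above background. The expected tissue markers were present, as all 6 epithelial and all 7 stromal genes tested were well above background on at least 1 array of every group. Conceptus RNA was not evenly present. The summed level of 9 trophoblast genes was 137, 80.7 and 573 times the array median in P18 replicates 2, 3 and 4 but 0.659 in P18 replicate 1, which lay within the range of NP18 (0.477 to 1.58). It was 0.247 to 0.481 in P15 and 0.239 to 0.314 in NP15. As these are whole tissue samples, fewer cells of a type and less RNA per cell cannot be told apart.

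Levels are given below as the relative signal, meaning the processed signal of a probe over that of the median probe on the same array. Differences are given as log2 of the ratio of groups. A relative signal may be compared between arrays, but not between probes. A member was said to rise or fall where the adjusted p of limma, corrected over all 13164 probes tested, was below 0.05. With 3 or 4 arrays per group, the smallest p an exact permutation test of a single probe can give is 0.0286. Groups without overlap were common. Every P18 array lay above every P15 array for 26.7% of all probes tested and below for 16.1%. Among the members these shares were 50 and 9.17%. Such shares were not counted for the other comparisons.

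Of the 60-base probes, the PSMB10 probe and the dimmer USP5 probe are shown because each has a reading frame without a stop codon, and because the results of these genes turn on them. The sequences run 5′ to 3′ on the strand given in the files. Both have 2 frames without a stop codon, and capitals mark the whole codons of 1 of them. Its place in the protein was not checked here.
PSMB10: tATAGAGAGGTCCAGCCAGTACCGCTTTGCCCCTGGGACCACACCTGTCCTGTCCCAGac
USP5 probe 2: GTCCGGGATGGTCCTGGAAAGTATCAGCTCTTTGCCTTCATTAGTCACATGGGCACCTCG
The marked frame has 19 codons in the PSMB10 probe and 20 in the USP5 probe. The PSMA6 probes shared 40 of their 60 bases, so that they read nearly the same target and are not independent. The 2 probes of USP5 shared at most 7 bases, and those of PSMD12 at most 6.

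Few of the 120 members passed the test between pregnant and non-pregnant cows of the same day. On day 15, none of them passed the test in P15 against NP15 by limma (19 had an unadjusted p below 0.05, and 22 in the methods' t-test, of which 0 were left after adjustment), where 0.957% of all probes passed. With array weights 28 members passed on day 15, 9 higher and 19 lower, beside 2426 of all 13164 probes. Without NP15 replicate 3 there were 3 members, beside 400 of all probes. On day 18, 6 members (5%) passed in P18 against NP18, 4 higher and 2 lower, where 6.91% of all probes passed (4.51% higher and 2.4% lower), so that the share of members was near that of the array. An unadjusted p was below 0.05 in 26 members by limma and in 28 by the methods' t-test, of which 1 was left after adjustment. On simulated data, 15.5% of changes of 1 (log2) were recovered on day 15 and 16.5% on day 18. Members that did not pass may therefore still differ. Between days more members passed. In the non-pregnant cows 11 members (9.17%) passed in NP18 against NP15, 5 higher and 6 lower, beside 10.8% of all probes (4.65% higher and 6.15% lower). In the pregnant cows 29 members (24.2%) passed in P18 against P15, 27 higher and 2 lower, beside 16.4% of all probes. The same comparison called 10.9% of all probes higher and 5.48% lower, against 22.5 and 1.67% of the members. The split depended on the scale, since with each array divided by its 75th percentile 23 members passed, 16 higher and 7 lower, and the median difference of all probes went from 0.12 to -0.18. The median of the members was 0.46 on the first scale and 0.16 on the second, where 2266 of all probes passed. The gap of 0.34 to the median of all probes cannot change between these scales. Dividing an array by another constant moves all its probes alike. The gap was smaller in settings that do more than this. With quantile normalization the medians were 0.18 for the members and -0.07 for all probes, and with the normexp background correction 0.39 and 0.18. With scan day as a random block, no member passed between days, and 1 member, PSMF1, passed on day 18. Of all probes, this fit called 49 on day 18, 54 between days in the non-pregnant cows and 0 in the pregnant cows. The difference between the pregnancy effects of both days (the interaction) passed in 2 members, both with the larger difference on day 18, beside 2.73% of all probes. These were PSMF1 and USP25. The counts depended on single arrays: 2 members passed on day 18 without NP18 replicate 3 or P18 replicate 2 and 3 without P18 replicate 3, and 11 passed from P15 to P18 without P15 replicate 1 or replicate 3. The calls over all probes fell in these fits too. They went from 910 to 510, 445 and 473 on day 18, and from 2158 to 782 and 838 between P15 and P18. Of the members that passed, 2 of 6 on day 18, 3 of 11 in the non-pregnant cows and 10 of 29 in the pregnant cows did so without any single array of the comparison. As the comparisons share groups, they are not independent of each other.

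**Figure D1:**
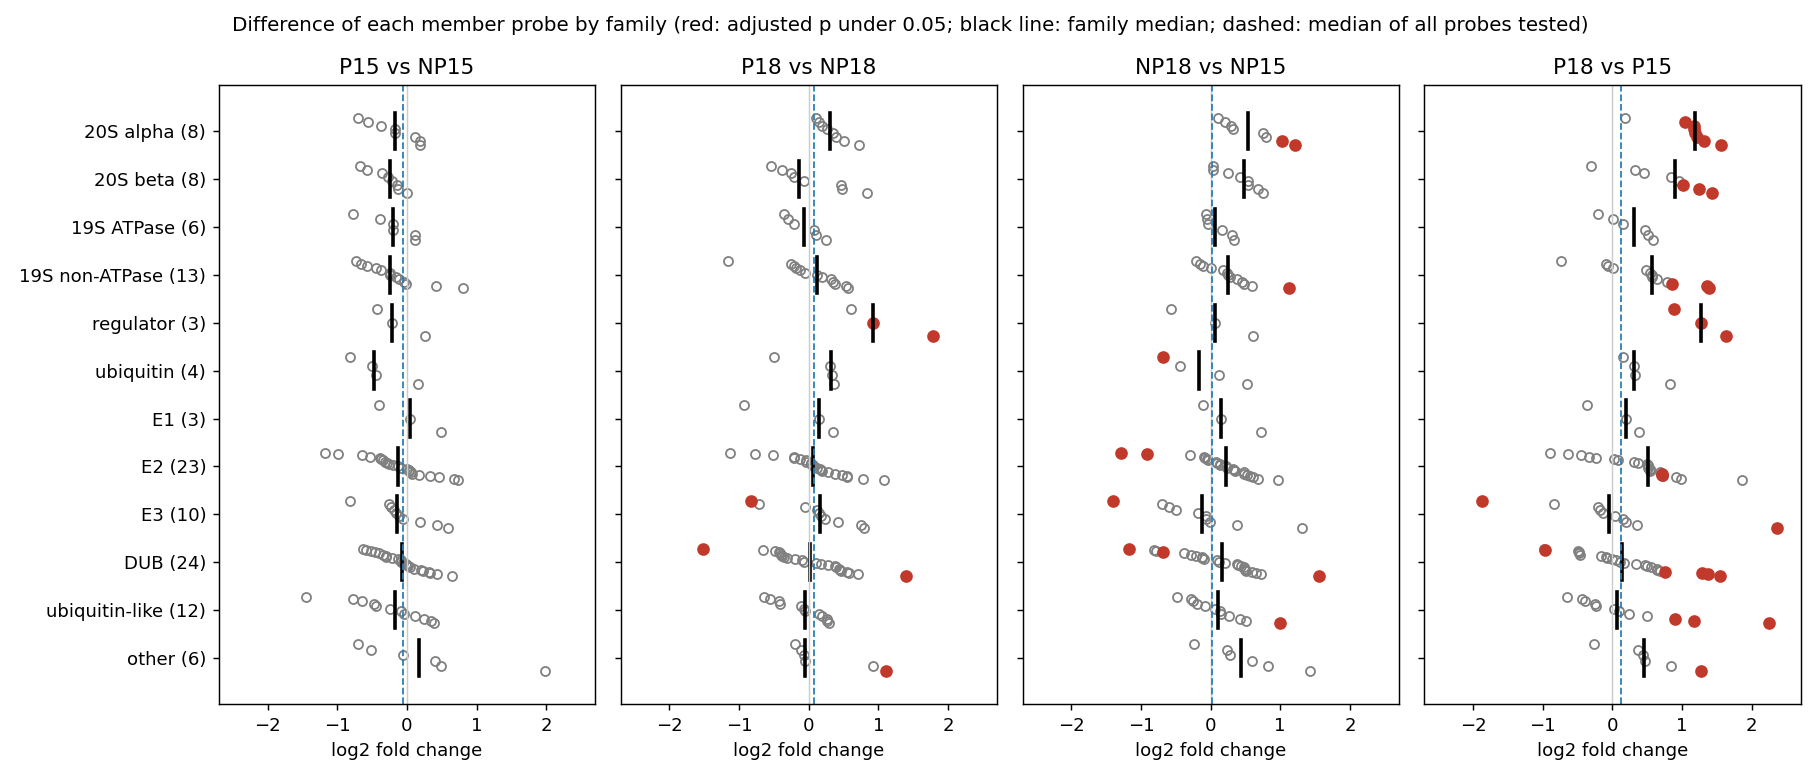
Log2 fold change (horizontal axis) of each of the 120 member probes in 4 comparisons, by family (vertical axis, number of probes in brackets). Red points had a limma adjusted p below 0.05, black lines are family medians and the dashed line is the median of all 13164 probes tested; red points crowd in the 20S alpha row of P18 vs P15 (7 of 8 probes), and no member is red in P15 vs NP15.

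Among the regulators of the 20S core, PSMF1 had the largest difference with pregnancy on day 18, and the smallest adjusted p, of all members. PSMF1, also called PI31, binds the core and was first described as its inhibitor. Its relative signal was 3.92, 4.01, 3.35 and 2.69 in NP18 and 12.3, 12.7, 12.4 and 10.3 in P18. In the groups of day 15 it was 6.06, 4.96, 3.81 and 6.01 in NP15 and 3.31, 4.98 and 3.38 in P15. Every P18 array thus lay above every array of the other groups, which overlapped with each other. The means were 11.9 ± 1.07 (SD, n = 4) in P18 and 3.49 ± 0.610 (SD, n = 4) in NP18, and the difference on the log2 scale was 1.78 (SE 0.22; adjusted p = 0.000223), with an exact p of 0.0286. On day 15 the difference was -0.42 (adjusted p = 0.42), and the interaction was 2.21 (SE 0.32; adjusted p = 0.00921). P18 replicate 1, the only P18 array with trophoblast markers as low as in NP18, had a PSMF1 level of 12.3, within the range of the other P18 arrays. The difference was 1.77 without that array. The part of conceptus RNA in the PSMF1 level was not tested.

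Of the subunits of the PA28 activator, which opens the core without ubiquitin or ATP, PSME2 passed on day 18 and PSME1 did not. PSME2 was 66.7, 114, 89.1 and 92.2 in NP18 and 169.8, 174, 217 and 128 in P18, without overlap. It rose by 0.93 (SE 0.23; adjusted p = 0.0266) on day 18, but did not pass without NP18 replicate 3 or P18 replicate 2 or 3 (adjusted p = 0.0636 to 0.0874). PSME1 was 37.3, 68.2, 59.8 and 64.6 in NP18 and 81.1, 91.7, 97.3 and 74.5 in P18, again without overlap, but the difference of 0.61 (adjusted p = 0.111) did not pass. From day 15 to day 18 of pregnancy all 3 regulators rose, PSMF1 by 1.64, PSME2 by 1.28 and PSME1 by 0.88 (adjusted p = 0.00109, 0.00548 and 0.0241, respectively). In the non-pregnant cows none of the 3 passed between days.

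**Figure D2:**
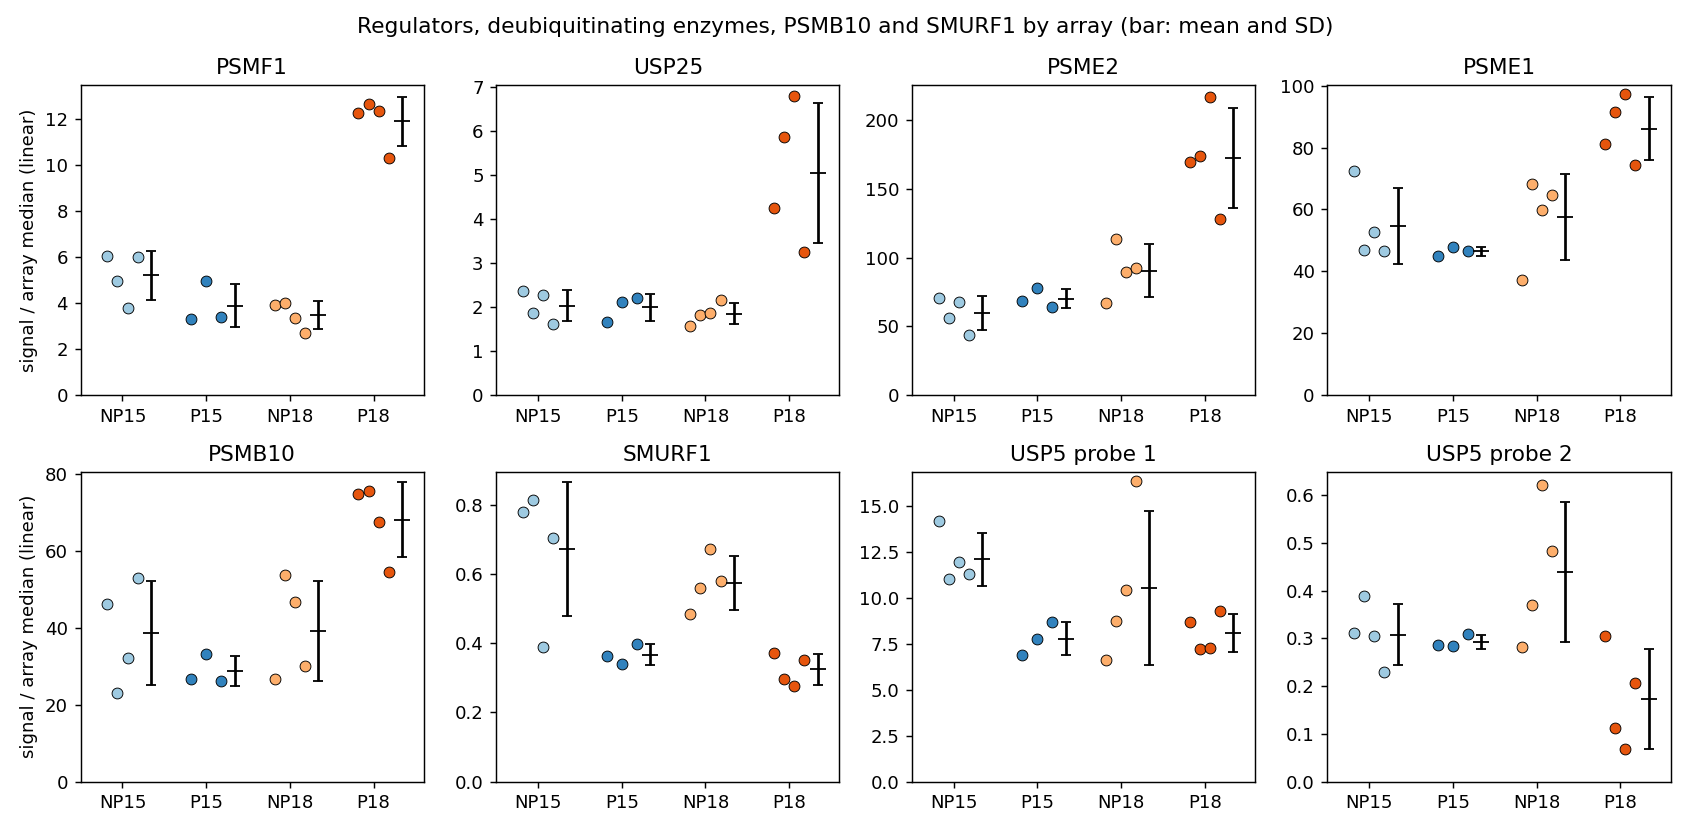
Relative signal (signal divided by the array median, linear axis from 0) of PSMF1, USP25, PSME2, PSME1, PSMB10, SMURF1 and both USP5 probes on each of the 15 arrays. Points are arrays and bars are the mean and SD of a group; the 4 P18 points lie above all others for PSMF1, USP25, PSME2, PSME1 and PSMB10, whereas both USP5 probes overlap between P18 and NP18.

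Most of the 20S core rose from day 15 to day 18 in the pregnant cows. Of its 16 probes, which cover 15 subunits, 10 were higher in P18 than in P15 and none lower (median log2 difference of 1.11, beside 0.12 for all probes). Of all probes 10.9% were higher in this comparison. With scan day as a random block no core probe passed, but neither did any other of the 13164 probes tested. With division by the 75th percentile the core median was 0.81 and 7 core probes passed, beside 2266 of all probes. Without single arrays the core median was 0.96 to 1.17, whereas 4 core probes passed without P15 replicate 1 or 3 and 6 without P15 replicate 2 or P18 replicate 3. Of all probes, 782, 838, 932 and 1179 passed in these fits. Of the core probes that passed, PSMA2, PSMA4, PSMB2 and PSMB4 did so without any single array. PSMA1, PSMA2, PSMA3, PSMA4, PSMA5 and both probes of PSMA6 rose, by 1.05 to 1.56. PSMA2 had the largest of these differences, with 24.3, 28.3 and 20.1 in P15 and 56.8, 71.2, 104 and 60 in P18 (log2 difference 1.56, SE 0.33, adjusted p = 0.00882). The P18 arrays lay from 56.8 upward and the P15 arrays at 28.3 or below. PSMA4 was 19.97, 23.6 and 19.6 in P15 and 40.2, 56.97, 63.5 and 50.3 in P18, a difference of 1.31 (adjusted p = 0.00974). The exception was PSMA7, at 6.58 to 7.33 in P15 and 6.79 to 8.88 in P18, groups that overlapped (log2 difference 0.18, adjusted p = 0.498).

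Of the beta subunits, PSMB2, PSMB4 and PSMB10 rose. PSMB2 was 10.7, 12.7 and 10.8 in P15 and 26.5, 33.5, 34.9 and 28.99 in P18 (log2 difference 1.44, SE 0.32, adjusted p = 0.0105). PSMB4 was 115, 110.4 and 110.1 in P15 and 204, 221, 267 and 215 in P18 (log2 difference 1.01, SE 0.22, adjusted p = 0.00895). The P18 arrays lay above all P15 arrays for both. PSMB5 and PSMB6, of which PSMB5 carries the chymotrypsin-like activity and PSMB6 the caspase-like activity, differed by 0.95 (adjusted p = 0.0602) and 0.83 (adjusted p = 0.108), and PSMB3 and PSMB7 (the trypsin-like site) by 0.33 (adjusted p = 0.507) and 0.45 (adjusted p = 0.329). The probe of PSMB1 was dim, at 0.0367 to 0.218, and well above background on 8 arrays but on no P18 array, so no fold is given.

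With pregnancy itself, no 20S probe passed the test of limma on either day. On day 18 all 8 alpha probes were positive (median of 0.31, smallest 0.10, largest 0.73) and 5 of the 8 beta probes were negative. Of all probes tested 55.7% were positive on day 18, with a median of 0.07. On day 15, 13 of the 16 core probes were negative, with a median of -0.19. Of all probes tested 45.1% were positive on day 15, with a median of -0.06. PSMB10, which replaces PSMB7 in the immunoproteasome, had the largest core difference on day 18. It was 26.8, 53.7, 46.9 and 30 in NP18 and 74.95, 75.6, 67.7 and 54.5 in P18. The groups did not overlap, and the difference was 0.84 (SE 0.29; adjusted p = 0.0926). It was 46.2, 23.1, 32.3 and 52.99 in NP15 and 26.8, 33.2 and 26.1 in P15, so that its level in P18 also lay above both groups of day 15. For the inducible subunits left out of the members, PSMB9 rose by 1.72 on day 18 (adjusted p = 0.00323) and PSMB8 differed by 0.58 (adjusted p = 0.209).

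In the non-pregnant cows, all 16 core probes were positive in NP18 against NP15 (median of 0.48) and 2 passed, PSMA3 (log2 difference 1.22, SE 0.28, adjusted p = 0.0163) and PSMA2 (log2 difference 1.03, SE 0.31, adjusted p = 0.0471). Of all probes 51.7% were positive in this comparison (median of 0.02) and 4.65% passed as higher. PSMA3 was 18.6, 13.4, 19.6 and 25.6 in NP15 and 33.96, 40.7, 35.8 and 73.6 in NP18, with no overlap, whereas PSMA2 overlapped. These values rested in part on 1 cow. In NP18 replicate 4, PSMA3 was 73.6 and PSMA2 70.3, the highest of the group. Without that array the median of the core was 0.21, 13 of 16 probes were positive and 1 passed, beside 810 of all probes. On day 18 the core median in P18 against NP18 then went from 0.23 to 0.50, with 14 of 16 probes positive and none past the test.

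NP18 replicate 4 stood apart for the proteasome more than for the array as a whole. It was the highest NP18 array for 14 of the 16 core probes and 16 of the 19 probes of the 19S particle, beside 38.2% of all probes. It was the highest of all 15 arrays for 9 and 14 of them, beside 17.4% of all probes. As the median deviation from the mean of each probe, the 20S core stood at -0.39, 0.21, 0.11 and 1.09 in NP18, at 0.24, 0.53, 0.77 and 0.39 in P18, at -0.58, -0.49 and -0.62 in P15 and at -0.04, -0.50, -0.29 and -0.26 in NP15 (log2). Apart from this array, P18 was the group with the highest levels, and P15 lay below every array of day 18. In this array PSMB10 was 30 and PSMF1 2.69, both below the median of the NP18 group. The summed smooth muscle markers were 166 in it and from 35.4 to 103 in the other NP18 arrays, and the stromal markers 1123 against 643 to 815. Their part in the level of the core was not tested.

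**Figure D3:**
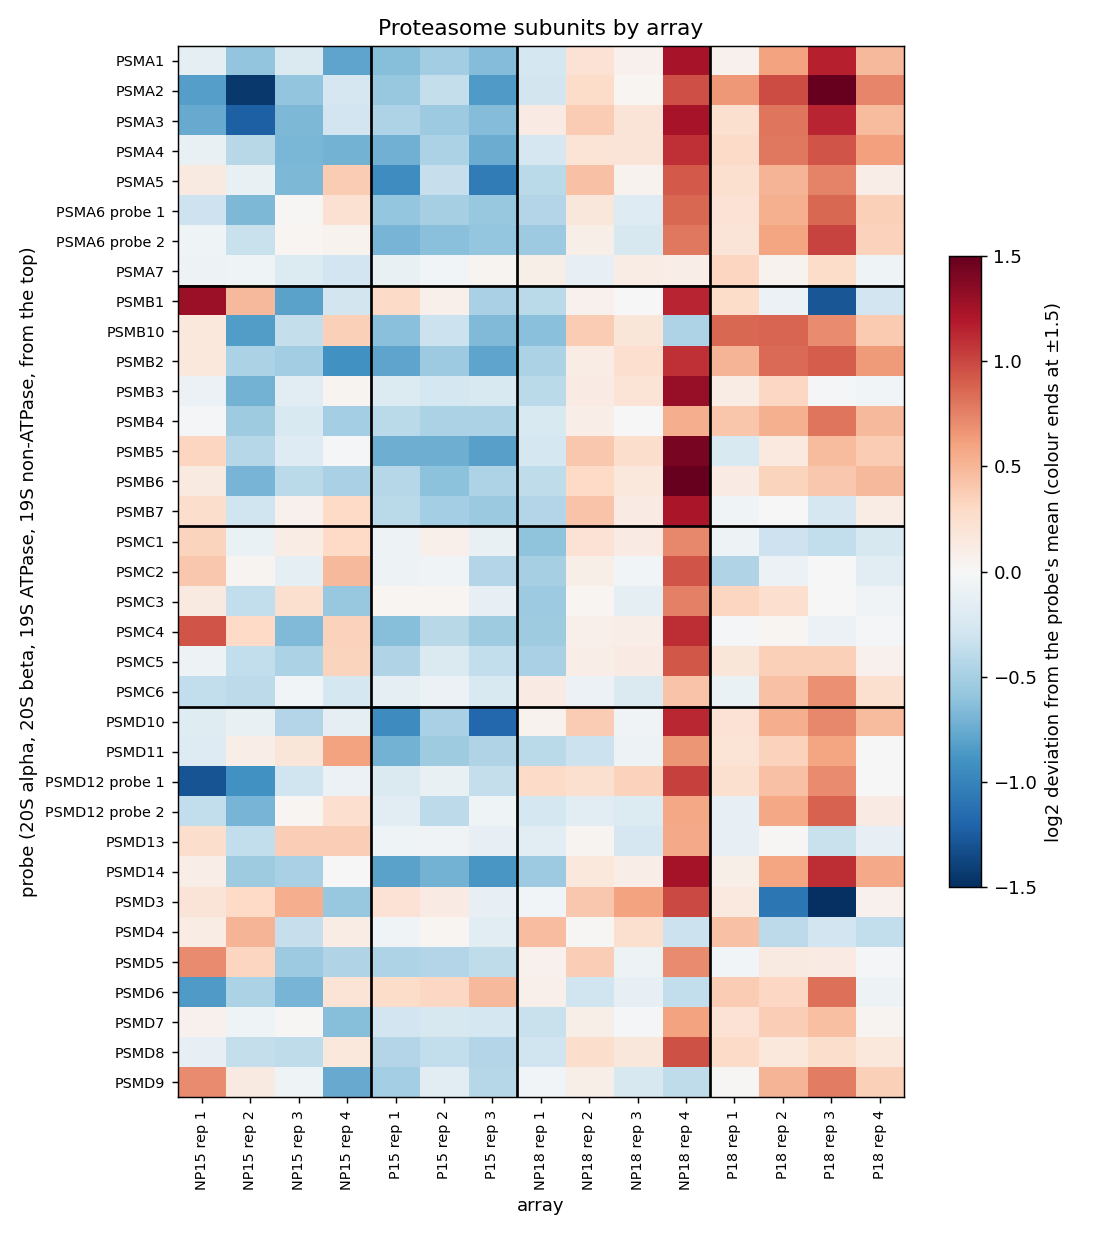
Log2 deviation of each proteasome subunit probe (rows, 20S alpha, 20S beta, 19S ATPase and 19S non-ATPase from the top) from its mean over the 15 arrays (columns, grouped as NP15, P15, NP18 and P18), with red above and blue below the mean. The column of NP18 replicate 4 is red in nearly all rows, the P15 columns are blue for most core subunits and the P18 columns red, while PSMA7 stays pale throughout.

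In the 19S particle, none of the 6 ATPases (PSMC1 to PSMC6), which thread the substrate into the core, passed in any comparison. From P15 to P18 they ranged from -0.21 (PSMC1) to 0.59 (PSMC5), with a median of 0.31. On day 18 with pregnancy they ranged from -0.36 (PSMC1) to 0.25 (PSMC6).

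Among the 13 non-ATPase probes, 3 rose from P15 to P18 and none fell. PSMD14, the deubiquitinating enzyme of the particle, was 17.8, 18.97 and 16.9 in P15 and 33.1, 46.9, 66.8 and 45.99 in P18 (log2 difference 1.39, SE 0.35, adjusted p = 0.0182). PSMD10, an assembly chaperone also called gankyrin, was 4.70, 6.49 and 4.01 and 10.5, 13.2, 14.97 and 12.6, respectively (log2 difference 1.36, SE 0.28, adjusted p = 0.00706). The third was PSMD11, a scaffold subunit, with 0.85 (adjusted p = 0.0466), which was lost on leaving out any 1 of the 7 arrays (adjusted p = 0.0533 to 0.154). For these 3 probes the arrays of both groups did not overlap, a separation upward that 26.7% of all probes tested also had. The ubiquitin receptor PSMD4 differed by -0.09 (adjusted p = 0.842) in the same comparison. In NP18 against NP15, 1 non-ATPase probe passed, PSMD12 probe 1, with 1.13 (SE 0.28; adjusted p = 0.0214). The second probe of PSMD12 gave 0.18 (adjusted p = 0.704), so the probes of this gene disagreed. The lowest difference with pregnancy on day 18 was that of PSMD3, a scaffold subunit, which was 2.99, 4.07, 4.68 and 6.09 in NP18 and 3.39, 1.45, 0.900 and 3.22 in P18. The groups overlapped and the difference of -1.15 (adjusted p = 0.0928) did not pass.

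The level of each family on each array was taken as the median over its probes of the deviation from the mean of the probe. The P15 arrays were close together in the 20S and 19S families (SD from 0.05 to 0.12 on the log2 scale) and the NP18 arrays were spread most widely (SD from 0.34 to 0.66). For the E3 ligases the levels of the 4 groups overlapped. For the deubiquitinating enzymes the P15 arrays (-0.15 to -0.11) lay below all arrays of the other groups, of which the lowest was -0.10. The group means of both families were between -0.13 and 0.09.

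**Figure D4:**
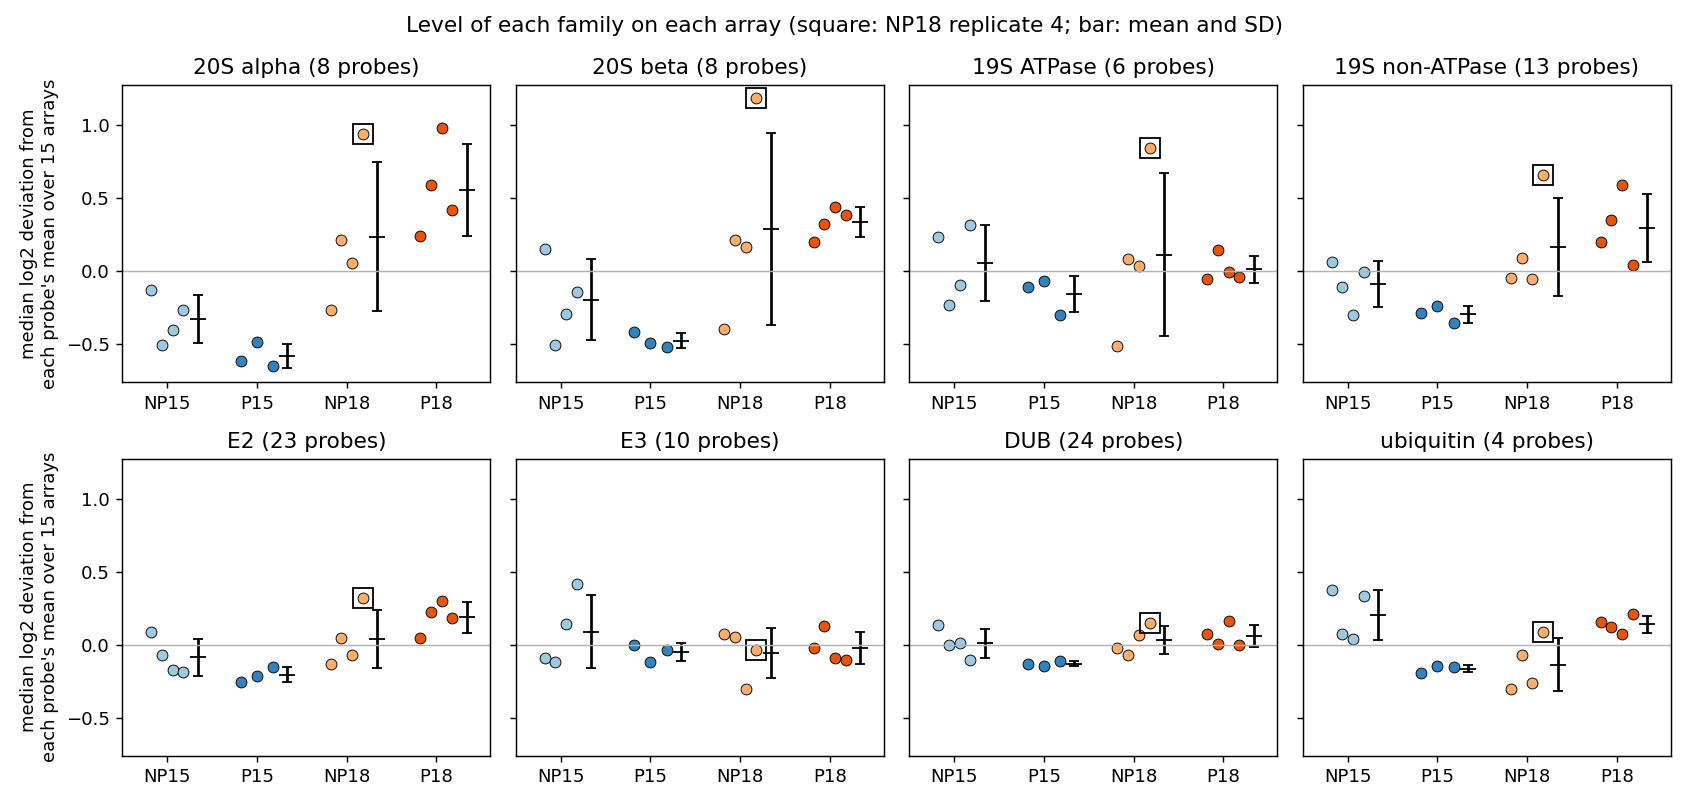
Level of 8 families on each array, as the median over probes of the log2 deviation from the mean of the probe over the 15 arrays (vertical axis), in the 4 groups (horizontal axis). Points are arrays, bars the mean and SD, and the square marks NP18 replicate 4. It is the top point of NP18 for every family shown except the E3 ligases. The P18 points lie above the P15 points for every family shown except the E3 ligases, by a narrow margin for the 19S ATPases.

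Of the ubiquitin genes, UBB encodes a chain of ubiquitin units. Its relative signal was 3.78 to 12.9 over all arrays, and it differed by -0.51 (adjusted p = 0.258) with pregnancy on day 18 and by 0.83 (adjusted p = 0.0602) from P15 to P18. Neither passed. Of the 3 E1 enzymes, UBA1 activates ubiquitin in most pathways, UBA6 is the second E1 for ubiquitin and UBA3 is a subunit of the E1 for NEDD8. None passed in any comparison. On day 18 with pregnancy they differed by -0.93 (UBA1), 0.14 (UBA6) and 0.34 (UBA3). The UBA1 probe was dim, at 0.0634 to 0.337.

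Of the 23 probes of E2 conjugating enzymes (22 genes), none passed with pregnancy on either day. The UBE2D enzymes, which work with many ligases, differed by 0.38 (UBE2D1), 0.48 (UBE2D2) and 0.04 (UBE2D3) on day 18. In the non-pregnant cows, 2 fell between days. UBE2G2, an enzyme of degradation at the endoplasmic reticulum, was 6.83, 7.51, 11.5 and 7.54 in NP15 and 5.91, 3.82, 4.87 and 3.19 in NP18, with no overlap (log2 difference -0.92, SE 0.23, adjusted p = 0.0227). UBE2O, a large enzyme with E2 and E3 activity, was 3.18, 2.85, 1.83 and 1.05 and 0.627, 0.906, 1.06 and 0.799, respectively, which overlapped (log2 difference -1.29, SE 0.34, adjusted p = 0.0268).

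In the pregnant cows 2 E2 probes rose between days, and in both the groups did not overlap. UBE2T, which serves the Fanconi anemia pathway of DNA repair, was 7.68, 9.92 and 7.15 in P15 and 11.8, 11.4, 14.8 and 15.9 in P18 (log2 difference 0.71, adjusted p = 0.0308). UBE2V1, an inactive partner that UBE2N needs to build chains, was 10.7, 10.5 and 11.6 and 14.4, 18.02, 24.9 and 15.9, respectively (log2 difference 0.71, adjusted p = 0.0333). Of the 7 fits without 1 array, the call of UBE2V1 was lost in 5 (adjusted p = 0.074 to 0.107) and that of UBE2T in 4 (adjusted p = 0.0761 to 0.132). UBE2N itself differed by 0.73 (adjusted p = 0.121). UBE2C, the E2 of the anaphase-promoting complex, was 0.0709, 0.0940 and 0.0688 in P15 and 0.148, 0.265, 0.241 and 0.646 in P18. These did not overlap either, yet the difference of 1.86 (SE 0.62; adjusted p = 0.0535) did not pass.

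Of the 10 E3 ligases, SMURF1 fell with pregnancy on day 18. It is a HECT ligase known to act on components of BMP and TGF-beta signaling. Its relative signal was 0.484, 0.560, 0.671 and 0.580 in NP18 and 0.370, 0.297, 0.277 and 0.352 in P18, with no overlap (log2 difference -0.82, SE 0.23, adjusted p = 0.0475). On day 15 it was 0.780, 0.812, 0.388 and 0.705 in NP15 and 0.363, 0.339 and 0.399 in P15, where 0.388 and 0.399 overlapped, and the difference of -0.82 (adjusted p = 0.16) was of the same size but did not pass. The interaction was -0.01 (adjusted p = 0.996). The call on day 18 was lost in 14 of 20 alternative settings, among them every fit without 1 array of day 18 except NP18 replicate 1 (adjusted p = 0.0555 to 0.132).

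Across days, DZIP3 and UHRF1 moved in opposite directions in the pregnant cows. DZIP3, an RNA-binding ligase, fell from 0.663, 0.568 and 0.692 in P15 to 0.137, 0.209, 0.159 and 0.201 in P18 (log2 difference -1.88, SE 0.39, adjusted p = 0.00748), and was well above background on 2 of the 4 P18 arrays. It fell in the non-pregnant cows too, by 1.41 (adjusted p = 0.0241), with overlap. UHRF1, which acts in the maintenance of DNA methylation during S phase, rose from 0.0403, 0.0286 and 0.0426 to 0.144, 0.188, 0.189 and 0.250 (log2 difference 2.37, SE 0.60, adjusted p = 0.0181). It was well above background on 2 of 3 P15 arrays and on all 4 P18 arrays. UBE3A, the ligase known from Angelman syndrome, ranged from 2.22 to 2.93 over all arrays and did not pass in any comparison.

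Of the 24 probes of deubiquitinating enzymes, USP25 had the largest rise with pregnancy on day 18. USP25 is known to act in innate immune signaling, among other pathways. It was 1.57, 1.80, 1.85 and 2.15 in NP18 and 4.25, 5.87, 6.78 and 3.24 in P18. It was 2.36, 1.87, 2.26 and 1.61 in NP15 and 1.65, 2.12 and 2.21 in P15. The lowest P18 array lay above the highest array of the other groups, which overlapped. The difference was 1.40 (SE 0.24; adjusted p = 0.00337) on day 18 (exact p = 0.0286) and -0.02 (adjusted p = 0.983) on day 15. The interaction of 1.42 (SE 0.35; adjusted p = 0.0475) lay close to the threshold and had an adjusted p of 0.0621 with division by the 75th percentile. It was past the threshold without NP15, NP18 or P18 replicate 4 and was lost without any other single array (adjusted p = 0.0553 to 0.146). Without P18 replicate 1 the difference on day 18 was 1.46. The part of conceptus RNA in the USP25 level was not tested.

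USP5, which takes apart free ubiquitin chains, gave different results with its 2 probes. Probe 2, printed above, was 0.283, 0.371, 0.622 and 0.483 in NP18 and 0.305, 0.112, 0.0675 and 0.206 in P18, with 1 P18 array inside the range of NP18. It was well above background on 3 of the 4 P18 arrays. The value of 0.0675, in P18 replicate 3, lay below 0.180, the lowest relative signal called well above background on that array. The size of the fall is therefore uncertain. Probe 2 fell by 1.51 on the log2 scale (SE 0.39, adjusted p = 0.0316), with an exact p of 0.0571. It did not pass without NP18 replicate 2, 3 or 4 or P18 replicate 2 or 3 (adjusted p = 0.0512 to 0.0976). Probe 1 was brighter, at 6.60, 8.73, 10.4 and 16.4 in NP18 and 8.69, 7.20, 7.25 and 9.28 in P18, and the difference of -0.31 (adjusted p = 0.477) did not pass.

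Between P15 and P18, 4 deubiquitinating probes rose and 1 fell. UCHL3, which cleaves small adducts from ubiquitin and NEDD8, was 9.81, 9.29 and 8.66 in P15 and 20.04, 31.1, 33.1 and 25.6 in P18 (log2 difference 1.54, SE 0.32, adjusted p = 0.00765). USP14, which acts on the 19S particle, was 3.86, 3.69 and 4.29 and 8.01, 10.9, 13.4 and 9.19 (log2 difference 1.37, SE 0.32, adjusted p = 0.0124). In both, every P18 array lay above every P15 array. UCHL5, the other free enzyme that docks on the particle, differed by 0.64 (adjusted p = 0.0897). USP25 rose by 1.29 (adjusted p = 0.00676) and USP1, which acts in DNA repair, by 0.75 (adjusted p = 0.0396). The call of USP1 was lost in 5 of the 7 fits without 1 array (adjusted p = 0.0817 to 0.128). USP15, which acts in TGF-beta signaling among others, fell from 0.318, 0.240 and 0.304 in P15 to 0.176, 0.151, 0.115 and 0.148 in P18 (log2 difference -0.96, adjusted p = 0.0299). It was well above background on 3 of the 4 P18 arrays. The call of USP15 was lost in 6 of the 7 fits without 1 array (adjusted p = 0.0537 to 0.112).

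In the non-pregnant cows, USP8, USP15 and BAP1 passed between days. USP8, an enzyme of endosomal sorting, rose from 0.214, 0.336, 0.250 and 0.508 in NP15 to 0.749, 1.07, 0.924 and 0.916 in NP18 (log2 difference 1.55, SE 0.29, adjusted p = 0.00596), and every NP18 array was above every NP15 array. In the pregnant cows it differed by 0.49 (adjusted p = 0.3). USP15 fell by 1.17 (adjusted p = 0.0122), so that it was lower on day 18 in both kinds of cows, although the call in the pregnant cows depended on single arrays. BAP1, a nuclear enzyme that removes ubiquitin from histones, fell by 0.69 (adjusted p = 0.0407). Its call was lost in 5 of the 8 fits without 1 array (adjusted p = 0.0555 to 0.1045). UCHL1, the neuronal enzyme, was dim, at 0.0640 to 0.331, and did not pass in any comparison.

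Of the 12 probes of ubiquitin-like genes, none passed with pregnancy. UFM1, a small modifier, rose in the pregnant cows from 6.89, 7.18 and 7.25 to 12.9, 18.6, 19.9 and 13.8 (log2 difference 1.17, adjusted p = 0.0384). Its call was lost in 6 of the 7 fits without 1 array (adjusted p = 0.0557 to 0.112). A gene described as FAT10-like, for a modifier that sends proteins to the proteasome, was 1.82, 0.400 and 0.953 in P15 and 7.27, 1.43, 10.1 and 3.02 in P18, which overlapped. It passed all the same (log2 difference 2.25, SE 0.63, adjusted p = 0.0266), with an exact p of 0.0857.

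Of the 6 remaining probes, UFD1, a partner of the VCP segregase, passed on day 18 (adjusted p = 0.0312). Its relative signal was 0.0294 to 0.0432 in NP18 and 0.0520 to 0.112 in P18, but it was well above background on 1 of 4 P18 arrays and on no NP18 array, so no fold is given. The call was lost without NP18 replicate 1 or 3 or P18 replicate 1 or 2 (adjusted p = 0.0518 to 0.103). UBASH3A, a protein of T cells, was well above background on 2 of 3 P15 arrays and 1 of 4 P18 arrays and on no array of the non-pregnant groups. It was kept only through the pregnant groups, so no difference is given for it. UBPH probe 2 passed from P15 to P18 (log2 difference 1.27, adjusted p = 0.0467) but was lost on leaving out any 1 of the 7 arrays (adjusted p = 0.0521 to 0.139), whereas probe 1 gave 0.44 (adjusted p = 0.186).

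Genes of the same pathway that were no members, either missed by the words of the rule or left out by name, were taken from a list of 104 names, of which 40 were tested with 42 probes. On day 15 none passed. On day 18, 7 were higher with pregnancy and none lower, with 4.51% of all probes higher. These included ISG15 (5.74), USP18 (4.99) and PSMB9 (1.72), which had been left out of the members by name. The others were TRIM21 (1.48), an antibody-binding ligase, NEDD4 (1.29), a HECT ligase, CYLD (1.05), a deubiquitinating enzyme of NF-kappaB signaling, and XIAP (0.88), an inhibitor of caspases with ligase activity, of which a second probe gave 0.02. Between P15 and P18, 10 rose and none fell, beside 10.9% of all probes higher. They included USP18, ISG15, PSMB8 and PSMB9, which had been left out of the members by name. Another was NFE2L2 (1.15, adjusted p = 0.00494), a stress factor known to raise proteasome genes, which also passed in the non-pregnant cows (0.69, adjusted p = 0.0409). NEDD8, the modifier of cullins, and COPS4, a subunit of the signalosome that removes it, rose between days in the non-pregnant cows (1.02 and 0.98).

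Several markers moved with the comparisons in which members passed. On day 18, 6 of the 9 trophoblast genes were higher and 1 was lower in P18 than in NP18, all 9 interferon-stimulated genes tested were higher, and 2 of 3 smooth muscle genes and 1 of 7 stromal genes were lower. The summed smooth muscle level was from 35.4 to 166 in NP18 and from 9.36 to 34.4 in P18. From P15 to P18, 6 trophoblast and all 9 interferon-stimulated genes were higher, and all 3 smooth muscle genes and 3 of 7 stromal genes were lower. In NP18 against NP15, VIM of the stromal list (1.03) and ELF5 of the trophoblast list (2.52) were higher and CD79A of the leukocyte list (-1.20) was lower, and no other marker passed. Of the 5 proliferation genes tested, CCNB2 and CDK1 rose from P15 to P18 (3.19 and 1.48). CCNB1 (1.415), MCM3 (0.09) and TYMS (-0.70) did not pass. On day 18, CCNB2 alone of this list passed with pregnancy, as higher (2.74). The summed level of that list was 33.8 to 54.6 in P15 and 32.1 to 33.0 in P18. The summed epithelial level was 103 to 137 in P15 and 226 to 324 in P18, where EPCAM was higher, CDH1 was lower and the other 4 genes did not pass. The part of these genes' cells in the members was not tested. In P18 replicate 1, whose trophoblast level was as in NP18, the 20S core stood at 0.24 against 0.39 to 0.77 in the other P18 arrays. Without it, the core median from P15 to P18 was 1.17 and 11 of the 16 core probes passed, beside 1999 of all probes.

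Over the 15 arrays, the subunits of the core moved together. As a description, the median of Pearson's r over pairs of probes was 0.82 for the alpha subunits (28 pairs), 0.61 for the beta subunits and 0.47 for the ATPases. It was 0.17 for the non-ATPase subunits, 0.25 for the E2 enzymes, 0.07 for the E3 ligases and -0.01 for the deubiquitinating enzymes. When the mean of each group was taken out first, it was 0.69 for both the alpha and the beta subunits, and 0.15 for all members. The probes of a pair share the arrays and their scaling, NP18 replicate 4 among them.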

How the data were processed

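RNA from the caruncular endometrium of 15 cows was hybridized to one-colour Agilent arrays of 60-base probes, 1 cow per array. The authors deposited scanner intensity files made with Agilent Feature Extraction 9.5, whose processed intensity is background-subtracted and detrended and not scaled between arrays. A log2 table from the authors was deposited as well. Set against the scanner files, it equals log2 of the processed intensity minus 1 constant per array near the 75th percentile, with column medians from -3.19 to -2.72, although the methods name the array median. It served as an alternative.

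Control spots were left out, the processed intensity of each probe was set relative to the array median, and log2 was taken with no pseudocount. Probes well above background on at least 3 of 15 arrays were tested (13164 of 15208). All 4 groups were fitted together with limma 3.58.1 in R 4.3.3, with Benjamini-Hochberg adjustment over all probes tested and a threshold of 0.05. Single members were also tested with a two-sided exact permutation test. Other settings were the 75th percentile, quantile normalization, normexp, the deposited table, no filter and a stricter one, array weights, slide, scan day and replicate number as blocks, 1 probe per gene, a fold limit of 2, the methods' t-test and leaving out each array. Normexp with the 75th percentile was added after seeing the data. On simulated data with 200 changed probes of 13130, 16.5% of changes of 1 (log2) were recovered in P18 against NP18, 63.5% of changes of 1.5 and 90% of changes of 2.5.

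The members, families and lists were chosen with earlier results of these data known. Genes named were the proteasome subunits, ubiquitin genes and 13 set enzymes, the 10 largest rises and falls past the test in each comparison and those past the test for the interaction. Any other member was named after its values were seen. Of the 67 names in the first 3 classes, 51 had a member. Families and names come from the descriptions in the files. A list of 5 endothelial genes gave 1 lower on day 18, 8 leukocyte genes gave none and 2 erythrocyte genes gave none. Promoters were not analysed here, and the values of some members are not reported here.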

Additional observations from a re-analysis of the deposited data

Results flagged for a closer look

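In 4 of the 114 sets of 4 arrays examined for the named members, 1 array stood far from the other 3. Chance alone does this in about 1 of 20 sets. BAP1 was 45.34 in NP15 replicate 4, against 27.73 to 29.41 in the others. UCHL3 was 32.38 in NP18 replicate 4, against 12.63 to 13.57, and PSMD12 probe 1 was 13.26 there, against 7.651 to 8.269. PSMF1 was 10.33 in P18 replicate 4, against 12.26 to 12.69, and remained above every array of the other groups. The difference with pregnancy was larger on day 18 than on day 15 for PSMF1, by 2.207 on the log2 scale, and for USP25, by 1.419, both past the test of the interaction in limma.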

How the results depend on the processing

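Counts of members past the test follow the order day 15, day 18, interaction, non-pregnant between days and pregnant between days, with 0, 6, 2, 11 and 29 as reported. Over all 13164 probes the reported fit called 126, 910, 359, 1421 and 2158. Array weights gave 28, 18, 14, 28 and 76 members, beside 2426, 2640, 1919, 3186 and 6207 of all probes. Normexp gave 10, 6 and 21 in the second to the fourth, and normexp with the 75th percentile 7 and 26 in the third and the fourth. Over all probes these counts were 2025, 2115 and 3337, and 1902 and 4071, respectively. The interaction gave 1 with the 75th percentile, the deposited table, no filter or slide as a block. Over all probes these settings called 280, 280, 339 (of 15208 without a filter) and 179. Scan day as a block gave 1, 0, 0 and 0 after day 15, beside 49, 0, 54 and 0 of all probes. The fold limit of 2 gave 7 in the non-pregnant cows, beside 942 of all probes. The methods' t-test gave 22, 28, 25 and 67 unadjusted in the 4 group comparisons, and 1, 0 and 48 adjusted in all but day 15. Over all probes it called 1681, 2843, 2446 and 5382 unadjusted, and 247, 181 and 3073 adjusted. Leaving out 1 array gave 0 to 3, 2 to 6, 1 to 5, 4 to 17 and 11 to 29. The extremes came without NP15 replicate 3 (3), NP18 replicate 3 or P18 replicate 2 (2), NP18 replicate 4 (5 for the interaction), NP18 replicate 2 (4), NP18 replicate 1 (17) and P15 replicate 1 or 3 (11). In the same order, these fits called 400, 510 or 445, 332, 756, 2228, and 782 or 838 of all probes. The cause was not tested. With the replicate number as a block the counts were 0, 3, 1, 9 and 17, beside 8, 664, 192, 1104 and 1333 of all probes. The deviations of arrays of the same number correlated from -0.26 to 0.30 over 21 pairs, and those of other numbers from -0.33 to 0.22 over 63 pairs. The cows were therefore not treated as paired. With 3 or 4 arrays per group, this check cannot exclude a pairing.

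Over 48 member results, 664 of 935 refits kept the call, 271 lost it and 0 changed direction. Only PSMF1 on day 18 kept it in every refit (1.66 to 1.86). The number of arrays limits the precision, and for dim probes such as UFD1 no size of change is given.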
